A study of Mus musculus with 2 samples.

Results

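The genes described here run protein folding in the endoplasmic reticulum (ER) and the unfolded protein response (UPR), the signalling that raises folding capacity when unfolded protein builds up. The list of 36 genes was chosen by name: ER chaperones, their co-factors, disulfide isomerases, translocation and degradation genes, and the sensors and transcription factors of the response. Every probe carrying a RefSeq accession of these genes was taken, which gave 47 of 55681 non-control probes. All 36 genes were well above background on both arrays with at least 1 probe, among 15099 genes measured on at least 1 array and 20660 with a named probe. Ern2 and Creb3l1, which belong to secretory cells, were set apart from the other 34.

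Total RNA of lung epithelial cells was hybridised in 1 colour to Agilent mouse arrays, with a single array of the Mob1DKO group and a single one of the wild type (WT). Mice of both groups were C57BL/6 and 10 weeks old. Mob1DKO is not spelled out in the labels and is taken here, from what is known of these mice, to mean that Mob1a and Mob1b, which encode adaptor proteins of the Hippo kinases, are both deleted. Which promoter or Cre drives the deletion, how many animals gave each RNA and how the epithelial cells were isolated are not stated there. Mob1b was lower on the Mob1DKO array (−2.98 against −0.98, in the log2 levels explained next), and the single Mob1a probe was not (−2.49 against −2.56). The question addressed is which transcripts of lung epithelium change in abundance with the genotype.

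A level is the log2 processed signal minus the array's 75th percentile, so that 0 marks the signal of a probe at that percentile, and a difference is Mob1DKO minus WT. With 1 array per group there was no test, no p-value and no spread between animals. Probes printed at 10 spots gave the technical SD of a difference between single spots: 0.256 for levels below 0, 0.0869 for levels from 0 to 3 and 0.0575 for levels of 3 or more. This SD covers the spotting and scanning of the same RNA and leaves out animals, cell isolation and labelling. A gene was called when it differed by at least 2-fold and its brighter array was well above background. The 75th percentile itself was 1.88-fold higher on the Mob1DKO array, while the median of 8 spike-in transcripts was 2.50-fold higher on WT, so the values describe each gene relative to the rest of its array and not RNA per cell.

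As background, the response has a sensor in the ER membrane for each of its arms. IRE1 (Ern1) splices the Xbp1 mRNA, PERK (Eif2ak3) phosphorylates the translation factor eIF2 and so favours translation of Atf4, and ATF6 (Atf6) is cut in the Golgi to release a transcription factor. The resulting factors raise the transcription of chaperone, degradation and translocation genes, and prolonged PERK signalling raises Ddit3 (CHOP) and Trib3. Alveolar type 2, club and goblet cells of the lung all secrete heavily, and the ER folds surfactant proteins, secretoglobins and mucins there. Splicing, phosphorylation and cleavage are not read by these arrays.

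None of the 36 genes was called. In all 15099 measured genes, 3.79% were called higher and 2.91% lower on the Mob1DKO array. Of the members, 32 belonged to the bright genes, and among the 8437 genes well above background on both arrays with a mean level of 0 or more, 0.687% were called higher and 0.687% lower. A count of 0 of 36 is therefore near what that background share gives. The median difference over the members was −0.01, against 0.02 over all measured genes and 0.02 over the bright ones. Differences ran from −0.60 (Ern2) to 0.27 (Eif2ak3), and 17 members lay above 0 and 19 below.

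**Figure D1:**
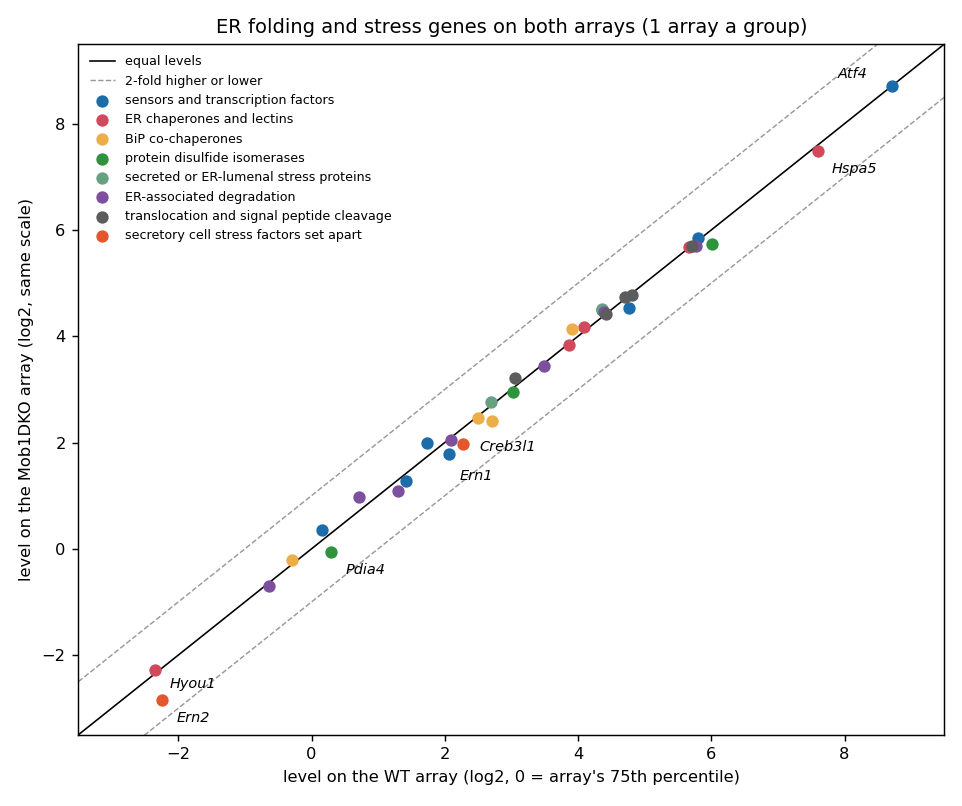
Level of each of the 36 genes on the WT array (x axis) and on the Mob1DKO array (y axis), both log2 relative to the array's 75th percentile, 1 point per gene and 1 array per group, coloured by role. All points lie between the dashed 2-fold lines, and Ern2, at −2.25 on WT and −2.85 on Mob1DKO, lies farthest below the line of equal levels.

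The promoters of several members carry the sequence through which ATF6 acts, and these sequences mark a group of members without use of the arrays. Promoters from 250 bases before to 50 bases after the start were taken from RefSeq (build GRCm38.p6) and matched 29 of the 36 members. They were searched on both strands for the ER stress element, which is CCAAT and CCACG set 9 bases apart. An exact match was found in 9 of the 29 members (31.0%) and in 37 of 27025 genes with a promoter (0.137%). The matches are shown because this element is the best known control sequence of the response. Each is written with CCAAT first and 6 bases on either side, and capitals mark the pair of boxes.

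Hspa5: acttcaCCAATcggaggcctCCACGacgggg
Hsp90b1, first match: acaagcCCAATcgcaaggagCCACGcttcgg
Hsp90b1, other match: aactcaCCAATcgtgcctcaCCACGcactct
Calr: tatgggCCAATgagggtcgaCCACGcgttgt
Canx: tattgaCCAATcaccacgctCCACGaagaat
Pdia6: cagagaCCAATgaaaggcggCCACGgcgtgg
Dnajc3: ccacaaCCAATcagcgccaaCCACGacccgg
Creld2: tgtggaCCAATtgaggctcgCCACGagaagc
Derl3: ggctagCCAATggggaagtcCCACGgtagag
Syvn1: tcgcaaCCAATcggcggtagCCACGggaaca

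On GRCm38.p6 these windows lie at chr2:34772019-34772049 on the plus strand for Hspa5, chr10:86705632-86705662 on the minus strand and chr10:86705527-86705557 on the plus strand for Hsp90b1, and chr8:84847069-84847099 on the plus strand for Calr. Those of Canx (chr11:50325794-50325824, minus strand), Pdia6 (chr12:17266485-17266515, plus strand) and Dnajc3 (chr14:118937821-118937851, plus strand) follow. The remaining windows lie at chr15:88819514-88819544 (Creld2, minus strand), chr10:75893236-75893266 (Derl3, minus strand) and chr19:6046526-6046556 (Syvn1, plus strand). The match ends 26 bases before the start of Syvn1, 47 bases before that of Hspa5 and up to 194 bases before that of Hsp90b1. Across these 9 members the median difference was −0.02, with a range of −0.29 (Dnajc3) to 0.15 (Creld2). The 20 members with a promoter and no such match had a median of −0.02 and a range of −0.35 to 0.27. They include Herpud1, Sdf2l1 and Dnajb9, described below as induced by the response. The split by exact match therefore does not set targets against other genes. Outside the list, 8 genes with a match were measured on both arrays, and their median was 0.08. Of these, Zfp57 alone was called, at −1.09 (−0.11 on Mob1DKO, 0.98 on WT), and Ero1b, an oxidase that recharges the disulfide isomerases, differed by 0.08; both are named after their values were seen.

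The Hspa5 promoter (chr2:34771840-34772139, plus strand, GRCm38.p6) is printed whole because this gene is the standard reporter of the response. Capitals mark the exact ER stress element and, upstream of it, the letters GACGTG of the UPR element core.

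Hspa5 promoter: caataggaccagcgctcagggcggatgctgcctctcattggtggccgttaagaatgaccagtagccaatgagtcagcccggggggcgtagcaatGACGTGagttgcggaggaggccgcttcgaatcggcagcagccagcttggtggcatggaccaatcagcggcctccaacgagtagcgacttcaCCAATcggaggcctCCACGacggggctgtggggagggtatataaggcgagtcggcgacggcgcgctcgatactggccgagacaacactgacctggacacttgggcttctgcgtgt

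The core GACGTG was found in 5 of the 29 members (Ddit3, Hspa5, P4hb, Pdia6 and Ssr1), or 17.2%, against 7.15% of all genes with a promoter. The composite element core TTGCATCA, bound by CHOP and ATF factors, was found in Herpud1 only, against 1.03% of all genes. None of these matches overlapped an ER stress element in Hspa5 or Pdia6, the members that hold both. A match describes the letters and does not show that a factor binds there.

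Among the sensors, Ern1 stood at 1.78 on Mob1DKO and 2.06 on WT, a difference of −0.29. Eif2ak3 stood at 1.999 and 1.73, a difference of 0.27, and Atf6 at 0.35 and 0.15, a difference of 0.19. The sensors thus differed in opposite directions, Ern1 lower and the others higher on Mob1DKO, and Ern1 by 1.22-fold. Ern1 and Eif2ak3 lay past 3 technical SDs, yet 33.1% of bright genes did, so that spot noise does not measure how far genes differ between such preparations.

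With the main treatment of the values, Xbp1 and Atf4 downstream were close to level. Xbp1, whose spliced form drives degradation and translocation genes, stood at 5.84 on Mob1DKO and 5.80 on WT, a difference of 0.04. Where its probe lies in the mRNA is unknown here, so spliced and unspliced mRNA are not told apart. Atf4, the factor of the PERK arm, stood at 8.72 and 8.71, and a dimmer probe of the gene differed by 0.09. Ddit3, the stress-induced factor CHOP, stood at 1.28 and 1.42, a difference of −0.14. Trib3, a pseudokinase induced by ATF4 and CHOP, stood at 4.53 and 4.76, a difference of −0.23 or 1.17-fold. The 2 genes at the end of the PERK arm were thus both slightly dimmer on the Mob1DKO array. Relative to all genes, Ddit3 ran from −0.18 to −0.04 and Trib3 from −0.25 to −0.16 over 12 alternative treatments of the values. Among these treatments, changes of a common scale and, for these genes with 1 probe, of the probe rule cannot turn a sign. Xbp1 ran from 0.02 to 0.32 and Atf4 from −0.01 to 0.20 over the same treatments, so the size of neither difference is settled.

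The 5 chaperones and lectins ranged from −0.11 to 0.08. Hspa5, which encodes BiP, the HSP70 of the ER that also holds the sensors inactive, stood at 7.49 on Mob1DKO and 7.60 on WT, a difference of −0.11. Hsp90b1 (GRP94, the HSP90 of the ER) stood at 5.67 on both arrays, a difference of 0.00. Both reporters of the response were therefore within 1.08-fold between arrays. The lectin chaperones, which retain glycoproteins until folded, differed by −0.02 (Calr, 3.84 and 3.86) and 0.08 (Canx, 4.17 and 4.09). Hyou1, a large HSP70-like exchange factor of BiP, stood at −2.28 and −2.35, a difference of 0.07 on a faint probe with a technical SD of 0.256. The direction for Hspa5 turned with the treatment of the values, from −0.13 to 0.14 relative to all genes. That for Hyou1 turned as well, from −0.27 to 0.12, and Calr and Hsp90b1 also turned sign.

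The co-chaperones of BiP ranged from −0.29 to 0.22. Dnajc3 (p58IPK, which also inhibits PERK) stood at 2.41 on Mob1DKO and 2.70 on WT, a difference of −0.29 that became 0.01 with normexp background correction. Dnajb9 (ERdj4), an XBP1 target that helps BiP keep IRE1 inactive, stood at 4.14 and 3.91, a difference of 0.22. A dimmer Dnajb9 probe gave 2.10 and 2.30, a difference of −0.20, so that the direction of this gene depends on the probe. Dnajb11 (ERdj3) differed by −0.05 on its bright probe (2.46 and 2.50), and its other probe was not well above background on WT. Sdf2l1, a partner of Dnajb11 and a strongly inducible gene of the response, stood at −0.21 and −0.29, a difference of 0.08 within its technical SD of 0.256.

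Of the disulfide isomerases, which form and rearrange disulfide bonds, 3 of 4 were dimmer on Mob1DKO and the list median was −0.17. Pdia4 (ERp72) stood at −0.06 on Mob1DKO and 0.29 on WT, a difference of −0.35 or 1.28-fold, the largest among the 34 genes other than Ern2 and Creb3l1. Pdia6 (P5) stood at 5.74 and 6.01, a difference of −0.27, but its dimmer probe gave 1.52 and 1.39, a difference of 0.13. Pdia3 (ERp57), which works with the lectin chaperones, differed by −0.07 (2.95 and 3.02). P4hb, the founding protein disulfide isomerase, was instead brighter on Mob1DKO, at 4.50 and 4.36, a difference of 0.14. Relative to all genes, the list median ranged from −0.20 to 0.03 over the alternatives and so turned sign, while Pdia4 by itself stayed between −0.39 and −0.29.

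The inducible lumenal proteins Manf and Creld2, which can also be secreted, were both slightly brighter on Mob1DKO. Manf stood at 2.76 and 2.69, a difference of 0.07. Creld2 was the member printed at 10 spots: they ran from 4.47 to 4.56 on Mob1DKO (mean 4.51 ± 0.030, SD) and from 4.30 to 4.40 on WT (mean 4.36 ± 0.030, SD). The spots of the arrays did not overlap, so the difference of 0.15, or 1.11-fold, exceeds spot noise for this probe. That difference still lay inside the quartiles of the bright genes, −0.13 to 0.17. The share of other probes printed at 10 spots that separate in this way is not given here. Spots of an array are not replicates of the genotype, and no value here gives the spread between mice.

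**Figure D2:**
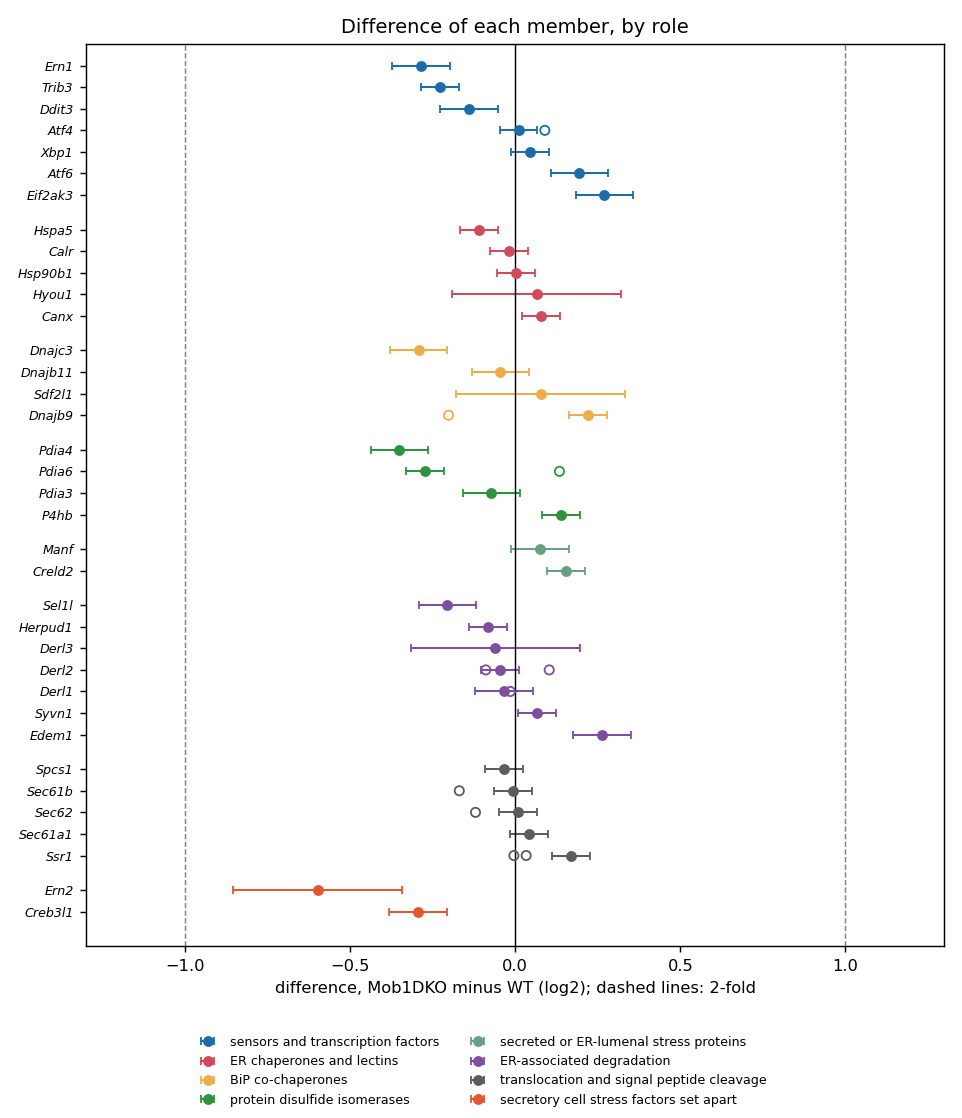
Difference, Mob1DKO minus WT (log2), of each gene by role; filled points are the brightest probe, bars are ± 1 technical SD of a single-spot difference at that level, and open points are other probes of the gene well above background on both arrays. No gene reaches the dashed 2-fold lines, and the open and filled points lie farthest apart, on opposite sides of 0, for Dnajb9 and Pdia6.

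In ER-associated degradation, which returns misfolded proteins to the cytosol for the proteasome, the median over 7 genes was −0.05. Edem1, a lectin that picks misfolded glycoproteins, stood at 0.98 on Mob1DKO and 0.72 on WT, a difference of 0.26 or 1.20-fold. The ubiquitin ligase Syvn1 (HRD1) differed by 0.07 (4.46 and 4.40), and its partner Sel1l by −0.21 (1.09 and 1.29). Relative to all genes, Sel1l turned sign over the alternatives (−0.25 to 0.07), so no direction is given for it. Herpud1, a stress-induced organiser of that complex, differed by −0.08 (5.69 and 5.78).

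The derlins, membrane proteins of the retrotranslocation step, were near 0 together. Derl1 gave 2.05 on Mob1DKO and 2.09 on WT (−0.03), Derl2 gave 3.45 and 3.50 (−0.05) and Derl3 gave −0.70 and −0.64 (−0.06). Both probes of Derl1 gave nearly the same difference, with a gap of 0.019, whereas the 3 probes of Derl2 ran from −0.09 to 0.10. Derl3 is the derlin most restricted to professional secretory cells.

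The 5 translocation genes ranged from −0.03 to 0.17. The channel subunits Sec61a1 (4.74 on Mob1DKO and 4.70 on WT) and Sec61b (5.71 on both) differed by 0.04 and −0.01. Sec62, which assists post-translational import, gave 4.42 and 4.41, a difference of 0.01 (its dimmer probe −0.12), and the signal peptidase subunit Spcs1 gave 4.78 and 4.82, a difference of −0.03. Ssr1, a subunit of the translocon-associated TRAP complex, was the highest at 3.22 and 3.05 (0.17), while its dimmer probes differed by 0.03 and 0.00.

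In the 8 members that several probes measured on both arrays, the gap between the highest and lowest probe of a gene was a median 0.17 and at most 0.42 (Dnajb9). Over 3406 such genes in all it was a median 0.23. In 7 of these 8 members, all but Derl1, the gap exceeded the size of the difference between arrays. Where a difference is near 0, almost any gap exceeds it. The share of all such genes was not counted, so the count describes no trait of the members.

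The secretory genes set apart were both dimmer on the Mob1DKO array. Ern2 encodes IRE1 beta, the form of IRE1 found in mucus-producing epithelium. It stood at −2.85 on Mob1DKO and −2.25 on WT, a difference of −0.60 or 1.51-fold, on a faint probe with a technical SD of 0.256. Creb3l1 (OASIS) encodes an ER membrane transcription factor of secretory cells and stood at 1.98 and 2.28, a difference of −0.29 or 1.23-fold. At a 1.5-fold threshold Ern2 was the single member past it, lower on Mob1DKO. The background at that threshold was 6.75% lower and 8.08% higher over all measured genes, and 3.22% lower and 2.52% higher over the bright ones. Relative to all genes Ern2 stayed between −0.64 and −0.55 over the alternatives and Creb3l1 between −0.33 and −0.13.

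These differences stood beside those of goblet cell genes, most of which were lower on Mob1DKO. Of 12 listed genes 11 were measured and 10 were called lower, against 2.91% of all measured genes. Their median was −1.64, and Foxa3 was not well above background. The goblet list was chosen with earlier results of these data known, so it is not independent of them. Spdef, the transcription factor of goblet cell maturation, stood at 0.51 on Mob1DKO and 1.82 on WT, or 2.48-fold lower. Agr2, itself an ER disulfide isomerase needed for mucin folding, stood at 0.31 and 1.95, or 3.11-fold lower. Agr2 thus had a difference of −1.64 while the 4 general disulfide isomerases lay between −0.35 and 0.14. Agr3, the remaining measured goblet gene, differed by 0.01 and is named after its value was seen. In RNA of mixed epithelial cells, fewer cells of a type and less RNA per cell cannot be told apart, and the part of goblet cell content in the Ern2 and Creb3l1 values was not tested.

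**Figure D3:**
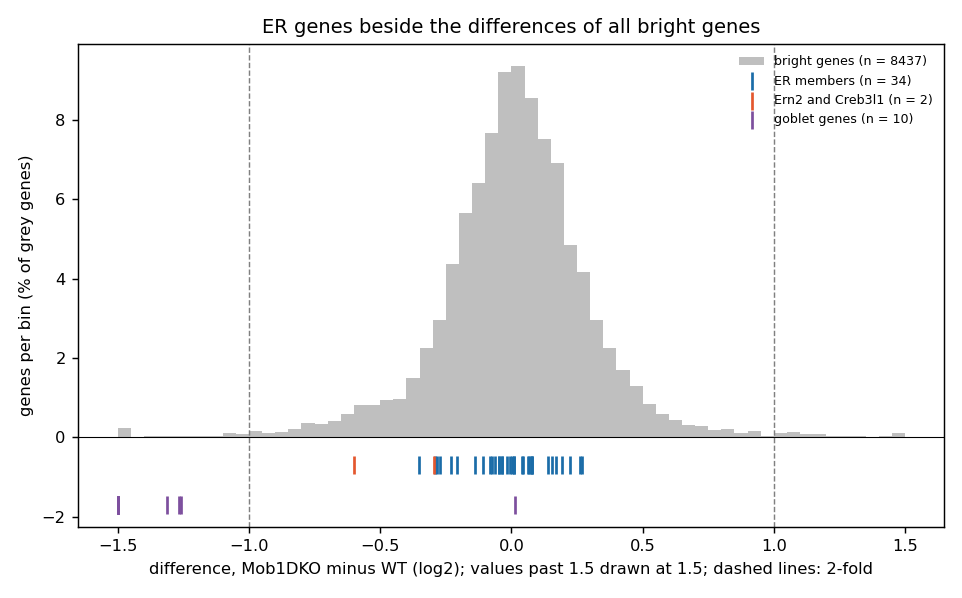
Distribution of differences (log2, Mob1DKO minus WT) over the 8437 bright genes, as percent per bin, with ticks below for the 34 ER genes, for Ern2 and Creb3l1, and for 10 goblet genes measured on both arrays. The ER ticks cluster around 0 between −0.35 and 0.27, Creb3l1 lies within that range at −0.29, Ern2 lies to its left at −0.60, and all goblet ticks except that of Agr3 lie past the 2-fold line; differences beyond 1.5 are drawn at 1.5.

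The rest of the pathway was read from lists of 135 further ER genes, of which 134 were measured; 1 was called higher and 3 lower, with a median of 0.02. Ddit4, a stress-induced inhibitor of mTORC1 that ATF4, hypoxia and glucocorticoids can raise, stood at 4.89 on Mob1DKO and 3.45 on WT, or 2.72-fold higher. It stayed between 1.42 and 1.68 relative to all genes over the alternatives. Other genes of the ATF4 and CHOP branch, named after their values were seen, lay on both sides of 0: Bbc3 differed by 0.43, Atf5 by 0.38, Asns (asparagine synthetase) by −0.01, Ppp1r15a (GADD34, which reverses eIF2 phosphorylation) by −0.02, Atf3 by −0.07, Chac1 by −0.28 and Sesn2 by −0.33. None was called, and the values of Asns, Ppp1r15a and Atf3 turned sign relative to all genes under at least 1 alternative.

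The lower genes were Creb3l3, Tram2 and Clgn. Creb3l3, an ER membrane transcription factor best known from liver and intestine, stood at −0.63 on WT and was not well above background on Mob1DKO. Set against the lowest Mob1DKO level well above background, −4.10, it was at least 11.1-fold lower. Tram2, a translocon-associated protein, stood at −2.15 on Mob1DKO and −0.93 on WT, or 2.32-fold lower. Clgn, a chaperone related to calnexin that is best known from testis, was called on its measured values, but with the Mob1DKO probe not well above background it was only at least 1.77-fold lower, from a faint WT level of −3.27. Each of these 3 genes rests on 1 probe, and Creb3l3, Tram2 and Clgn shrank to −1.85, −0.80 and −0.68 relative to all genes under at least 1 alternative.

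By list, other UPR and integrated stress genes had a median of −0.01 over 25, other ER chaperones and oxidoreductases 0.00 over 34, and other translocon, signal recognition particle and signal peptidase genes −0.03 over 25. None of 25 N-glycosylation genes was called (median 0.07), nor of 25 other degradation genes (median 0.11, with 18 above 0). The brightest members were likewise near 0, with Vcp, the segregase of ER-associated degradation, at 0.04, the oxidase Qsox1 at −0.09, Sec61g at −0.11 and the oligosaccharyltransferase subunit Rpn2 at −0.10. Bfar and Nupr1, the brightest of the stress list, differed by 0.35 and −0.29.

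Chaperones of other compartments give a comparison. None of 23 measured cytosolic chaperones was called, with a median of 0.16 and 17 above 0, and relative to all genes this median stayed above 0 over the alternatives (0.13 to 0.36). Hspa8, the constitutive cytosolic HSP70, differed by −0.03 and the small heat shock protein Hspb1 by −0.12. None of 14 mitochondrial chaperones and proteases was called either (median −0.01), with Hspd1 at 0.21 and Hspe1 at 0.24. The interquartile range of the ER members was 0.19, against 0.28 for cytosolic chaperones, 0.29 for mitochondrial ones, 0.30 for bright genes and 0.41 for all measured genes. The range over the 134 other ER genes was 0.34, so a narrow one was not seen in every set of ER genes. It was 0.21 over the other translocon list and 0.18 over pan-epithelial marker genes. The sets differ in how many faint genes they hold, and faint genes have a larger technical SD. The spreads were not compared at equal levels, and no test of them was made.

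**Figure D4:**
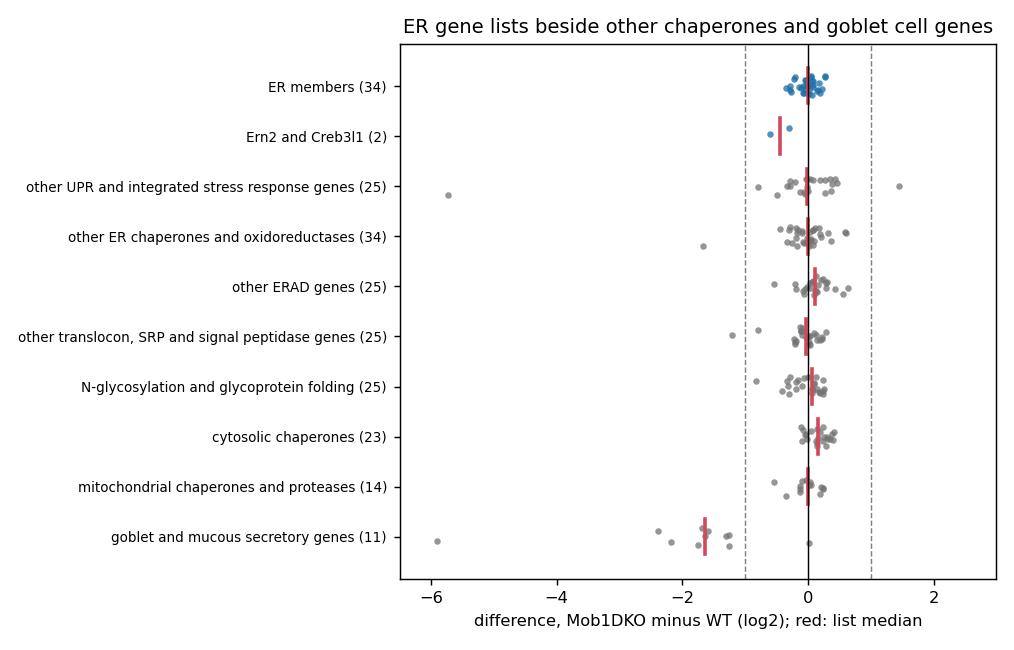
Difference (log2, Mob1DKO minus WT) of every measured gene in the ER lists, the chaperone lists of other compartments and the goblet list, 1 point per gene, with the list median in red and the number measured in brackets. Medians lie between −0.03 and 0.16 except for Ern2 with Creb3l1 (−0.45) and goblet genes (−1.64); the far points are Creb3l3 at −5.73 and Clca1 at −5.90, drawn at their measured difference.

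Markers describe the preparations. All 8 pan-epithelial and all 8 alveolar type 2 genes were measured on both arrays and none was called (medians −0.05 and −0.25), and all 5 measured club cell genes lay below 0 (median −0.72), with Scgb3a1 called lower at 2.28-fold. Of 11 genes of plasma and B cells, the former rich in ER, 7 were measured and 3 were called higher on Mob1DKO from WT values not well above background: Cd79a at least 3.38-fold, Jchain at least 1.98-fold and Tnfrsf17 at least 1.55-fold. The 4 measured on both arrays were not called, with Mzb1 at 0.31, Cd79b at 0.30, Sdc1 at 0.01 and Prdm1 at −0.42. On neither array did Pou2af1, Irf4 or Ms4a1 pass background. Of 9 leukocyte genes, 6 were measured and none was called (Ptprc was not well above background), and of 8 endothelial genes, 5 were measured and none was called. Of 8 mesenchymal genes, 4 lay above 0 and 4 below (median −0.12). Lum alone was called, at least 2.22-fold higher, from a faint Mob1DKO level of −2.31 and a WT value not well above background. Among 6 red cell genes 4 globin genes were called lower, Hba-a1 by 8.57-fold. The part of these cells in the ER values was not tested.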

How the data were processed

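The deposited scanner files hold intensity values per spot, made with Agilent Feature Extraction 10.7.1.1 in 1 colour per the file headers, whereas version 9.5.1.1 stands in the submitters' processing notes. What the software did to reach its processed signal was not read from the headers. The deposited value table of the series also holds intensity values, equal within 0.1% to a quantile normalization of that signal for 99.5% of Mob1DKO and 99.2% of WT probes. Flags of the scanner software, deposited as other columns of 0 or 1, gave background and outlier calls.

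Spots of a probe were averaged, control spots left out, and log2 of the signal taken minus the 75th percentile of the array. Of non-control probes, 58.6% (Mob1DKO) and 53.1% (WT) were well above background and none was saturated. Probes were named by RefSeq accession through a table on GRCm38.p6, and probes without one were left out. A gene took its brightest probe, out of probes that passed background on 1 or both arrays. A bound sets the brighter level against the higher of the dim level and the lowest level well above background (−4.10 on Mob1DKO, −3.45 on WT). No test was run. The gene values were tested on simulated data, with planted changes all past the 2-fold rule. Noise was the same at every level and the background flags were the same on both arrays. The simulation therefore does not cover faint probes or differences as small as those of the members. The members and lists were chosen with earlier results of these data known.

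Named genes were all members, up to 4 called and the 2 brightest genes of each other list, Spdef and Agr2, and others where said. Alternatives were scaling on the median, on housekeeping genes, by loess (span 0.3), by quantiles or without scaling, normexp with an offset of 50 (on the median spot signal, since the files give no mean), the value table, other background filters, removal of outlier spots, other probe rules, a 1.5-fold threshold and the list without Ern2 and Creb3l1. Python 3.11.15, pandas 2.3.3, statsmodels 0.14.6 and limma 3.58.1 were used.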

Additional observations from a re-analysis of the deposited data

How the results depend on the processing

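No member was called under any alternative except the absence of scaling, where 7 were called higher and the median was 0.90 beside 0.93 for all genes, and the 1.5-fold threshold, where 1 (Ern2) was lower. The median was 0.13 with scaling on housekeeping genes (0.17 for all genes) and 0.14 with normexp (0.00 for all genes). The rise with normexp did not hold for every member, since Hyou1 went from 0.04 to −0.27 relative to all genes. It was also not particular to the members. Relative to all genes, Asns went from −0.03 to 0.23, Chac1 from −0.30 to −0.04 and Ddit4 from 1.42 to 1.68. The median over the members ran from −0.04 to 0.14 relative to all genes over 12 settings. Changes of a common scale (the median, housekeeping genes or no scaling) cannot alter values relative to all genes, here and in each such range given above. The value table nearly repeats the quantile normalization. Over the 12 settings no member differed from all genes by more than 0.64, and 20 of 36 kept 1 sign. The sign turned in the other 16, which include larger differences such as Dnajc3 (−0.33 to 0.01), Sel1l (−0.25 to 0.07), Dnajb9 (−0.01 to 0.34) and Ssr1 (−0.02 to 0.33). Of 432 values of single members, 302 stayed within the technical SD of the reported one, and of the 130 others 36 came from the absence of scaling, 32 from scaling on housekeeping genes and 31 from normexp. Many of the 302 were fixed in advance and do not measure robustness. All members passed background on both arrays, so the background filters could not move them. Nor could the probe rules move the 27 members with 1 probe. Faint probes limit Ern2, Hyou1, Derl3 and Sdf2l1, and 1 array per group limits every value.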
